A study of Mus musculus with 6 samples.

Results

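The 10 genes described here are the transcriptional co-activators Yap1 and Wwtr1 (which encodes TAZ), their DNA-binding partners Tead1 and Tead4, and 6 genes known as targets or regulators of the pathway: Ankrd1, Ccn1, Ccn2, Amotl2, Ajuba and Lats2. They were picked by gene symbol from 32245 symbols with read counts, and all 10 were counted well enough to be among the 14378 genes tested. The samples were primary cardiomyocytes from the hearts of neonatal wild-type mice, which received phosphate-buffered saline (PBS), BMP2, or BMP2 together with dorsomorphin (BMP2+DM). Each of these 3 groups has 2 libraries of polyadenylated RNA. BMP2 is a secreted growth factor that signals through BMP receptors and SMAD proteins. Dorsomorphin inhibits BMP receptor kinases, and also AMP-activated protein kinase. Every dorsomorphin library also received BMP2, so effects of dorsomorphin by itself are not separated here. The sources used here give no dose, time or number of animals or cultures. Whether the libraries of a group are separate cultures is not stated, and the p-values measure only the spread between these libraries, which may be technical.

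YAP and TAZ do not bind DNA themselves. They enter the nucleus and switch on genes through TEAD factors, which recognise a short element known from muscle promoters. The Hippo kinases, ending in LATS1 and LATS2, phosphorylate YAP and TAZ and keep them out of the nucleus, while tension in the actin cytoskeleton favours their entry. In the newborn heart YAP is known for promoting cardiomyocyte proliferation. Because this control acts on the proteins, RNA counts give the abundance of the transcripts but neither the location nor the phosphorylation of YAP and TAZ.

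Each library held between 10106667 and 14366042 counts assigned to genes, of which the 10 genes together took 0.386% to 0.600%. Cardiomyocyte marker genes such as Myh6, Tnnt2 and Ttn were abundant in every library, with a summed level of 23043 to 27578 CPM (the read count scaled to a common library size after TMM adjustment) over 8 markers. Fibroblast markers summed to 7595 to 8245 CPM, endothelial markers to 127 to 229 CPM and leukocyte markers to 60.0 to 90.3 CPM, so RNA of other cells was present as well. In such bulk samples, fewer cells of a type and less RNA per cell cannot be told apart. The libraries PBS 1 and BMP2 1 stood apart by their ribosomal-repeat reads, 1.31% and 2.10% of gene counts against 0.0702% to 0.0928% in the other 4. A fit without both of them keeps 1 PBS, 1 BMP2 and 2 BMP2+DM libraries, so its only replicate spread comes from the BMP2+DM pair, and a call lost in it says little about the libraries removed. Among the 10 genes, the calls lost in that fit were Lats2 with BMP2 (−0.30), Amotl2 (0.23) and Lats2 (0.32) for added dorsomorphin, and Yap1 (−0.27) and Amotl2 (−0.22) in BMP2+DM against PBS.

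BMP2 lowered 4 of the 10 genes and raised none of them: Ankrd1, Ccn2, Amotl2 and Lats2 fell, while the co-activators, the TEAD genes, Ccn1 and Ajuba did not pass the test. The comparison asks which transcripts BMP2 changes in these cells. Over all tested genes, 15.8% were called in it (9.29% fell and 6.55% rose). With 2 libraries per group, ranges that do not overlap are common. They lay apart for 55.9% of all tested genes in this comparison and for 7 of the 10. For BMP2+DM the shares were 50.3% against BMP2 (8 of the 10) and 58.5% against PBS (7 of the 10). At an unadjusted p under 0.05, and with DESeq2, the counts were again 4 lower and 0 higher. The median log2 fold change of the 10 genes was −0.09, beside 0.00 for all tested genes.

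Ankrd1, which encodes a cardiac ankyrin repeat protein of the sarcomere and nucleus, was the most abundant of the 10. The gene occupies bases 36111961 to 36120099 of chromosome 19 (mm10, minus strand). Its level was 2659.6 and 2683 CPM with PBS, and 1342 and 1365 CPM with BMP2. Every BMP2 library was far below both PBS libraries, and the level was 50.7% of that with PBS (log2 −0.98 ± 0.05 SE, edgeR adjusted p = 1.29e-10). With BMP2+DM it was 1398 and 1397 CPM, close to the BMP2 libraries (log2 0.05 ± 0.05 against BMP2, adjusted p = 0.633) and still well below PBS (log2 −0.93 ± 0.05, adjusted p = 1.45e-10). Over 13 alternative fits the fall with BMP2 stayed between −0.99 and −0.97.

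The bases before the Ankrd1 start site are printed because they hold the element that TEAD factors are known to recognise 2 times. The sequence comes from the RefSeq promoter table (GRCm38.p6, the mm10 assembly), and covers the minus strand of chr19:36119845-36120094. Capitals mark GGAATG, searched on both strands (CATTCC on the opposite one).
Ankrd1: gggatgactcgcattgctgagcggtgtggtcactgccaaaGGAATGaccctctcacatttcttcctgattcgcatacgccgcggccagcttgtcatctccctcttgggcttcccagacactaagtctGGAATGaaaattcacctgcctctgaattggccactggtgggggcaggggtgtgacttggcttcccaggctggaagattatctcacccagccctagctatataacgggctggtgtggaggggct
The matches begin 210 and 123 bases before the RefSeq start site. In the GENCODE annotation the gene starts further upstream, at base 36120099, so the printed stretch lies within its span.

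Ccn2 and Ccn1 encode the matricellular proteins CTGF and CYR61, which are secreted into the matrix and are the targets most often used to read YAP activity. Their transcripts went separate ways. Ccn2 (chromosome 10, plus strand, 24595442 to 24598683, mm10) stood at 1363 and 1390.4 CPM with PBS, 765 and 761 CPM with BMP2, and 521 and 513 CPM with BMP2+DM. The 3 groups did not overlap and formed a staircase downward. Ccn2 fell with BMP2 to 55.4% of its PBS level (log2 −0.85 ± 0.05, adjusted p = 1.7e-09) and fell again when dorsomorphin was added, to 67.8% of its BMP2 level (log2 −0.56 ± 0.05, adjusted p = 1.05e-06). Against PBS, BMP2+DM left 37.6% of it (log2 −1.41 ± 0.05, adjusted p = 1.71e-12).

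Part of the Ccn2 locus is also annotated on the other strand. The exons of Ccn2 share 665 bases, 23.2% of their length, with the processed transcript Gm15270 on the opposite strand. The strand setting of the counting step is not stated, so it is not known whether reads of the 2 genes were told apart there. In each file 49.7% to 50.1% of the total was assigned to no feature, and 0.133% to 0.138% was set aside as ambiguous between genes. Whether the strand setting matched the libraries was not tested. Gm15270 was counted at 421 and 447 CPM with PBS, 244 and 261 CPM with BMP2, and 167 and 168 CPM with BMP2+DM. These counts, which may include reads of Ccn2, were lower in both steps, with log2 fold changes of −0.78 ± 0.06 for BMP2 and −0.59 ± 0.06 for added dorsomorphin. Of the exonic bases of Gm15270, 32.4% lie within Ccn2.

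Ccn1 (chromosome 3, minus strand, 145646976 to 145649981, mm10) stood at 601 and 582 CPM with PBS, 622 and 607 CPM with BMP2, and 546 and 563 CPM with BMP2+DM. The BMP2 libraries lay just above the PBS libraries and the BMP2+DM libraries just below them. The differences were small: log2 0.06 ± 0.05 for BMP2 (adjusted p = 0.512) and −0.15 ± 0.05 for added dorsomorphin (adjusted p = 0.0714). The latter passed with DESeq2 (adjusted p = 0.046) and in none of the other alternatives, over which adjusted p reached 0.316. Per kilobase of exon, the Ccn2 level was 1.60 and 1.69 times that of Ccn1 with PBS, 0.869 and 0.885 times with BMP2, and 0.674 and 0.644 times with BMP2+DM. By this measure the order of the CCN genes was turned in all 4 BMP2-treated libraries. In plain CPM, Ccn2 stayed above Ccn1 with BMP2 and was below it with BMP2+DM, so the order with BMP2 depends on the length used. The exons of Ccn2 sum to 2.86 kb and its longest transcript to 2.49 kb, against 2.02 kb for Ccn1. This ratio was described, not tested.

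Amotl2 encodes an angiomotin family protein that binds YAP at cell junctions, and Lats2 a kinase that inactivates YAP. Both are known as feedback genes, induced by YAP and acting against it. Both fell with BMP2 and rose when dorsomorphin was added. Amotl2 (chromosome 9, plus strand, 102716672 to 102733418, mm10) stood at 427 and 458 CPM with PBS, 328 and 335 CPM with BMP2, and 383 and 404 CPM with BMP2+DM. No groups overlapped, which is common with 2 libraries per group, and the BMP2+DM libraries lay between the others. It fell by 0.42 ± 0.05 on the log2 scale with BMP2 (adjusted p = 9.36e-06), in all 13 alternatives as well. It rose by 0.25 ± 0.05 with added dorsomorphin (adjusted p = 0.0038). That call was lost without BMP2 replicate 1 (0.23), with adjusted p from 0.000411 to 0.142 over the alternatives.

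Lats2 (chromosome 14, minus strand, 57689662 to 57758388, mm10) stood at 147 and 135 CPM with PBS, 112 and 109.8 CPM with BMP2, and 139 and 136 CPM with BMP2+DM. The BMP2 libraries were below all the others, and the BMP2+DM libraries fell within the PBS range. It fell by 0.35 ± 0.07 on the log2 scale with BMP2 (adjusted p = 0.0027) and rose by 0.31 ± 0.07 with added dorsomorphin (adjusted p = 0.0121). The fall lost its call without PBS replicate 1 (−0.28), with adjusted p from 0.00011 to 0.185 over the alternatives. The rise lost it without BMP2 replicate 1 (0.32), BMP2 replicate 2 (0.30) or BMP2+DM replicate 1 (0.29), with adjusted p from 0.00163 to 0.141. In the GENCODE annotation, 42.4% of the exonic bases of Lats2 also belong to the protein-coding model Gm49361 on the same strand, which was not analysed here.

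**Figure D1:**
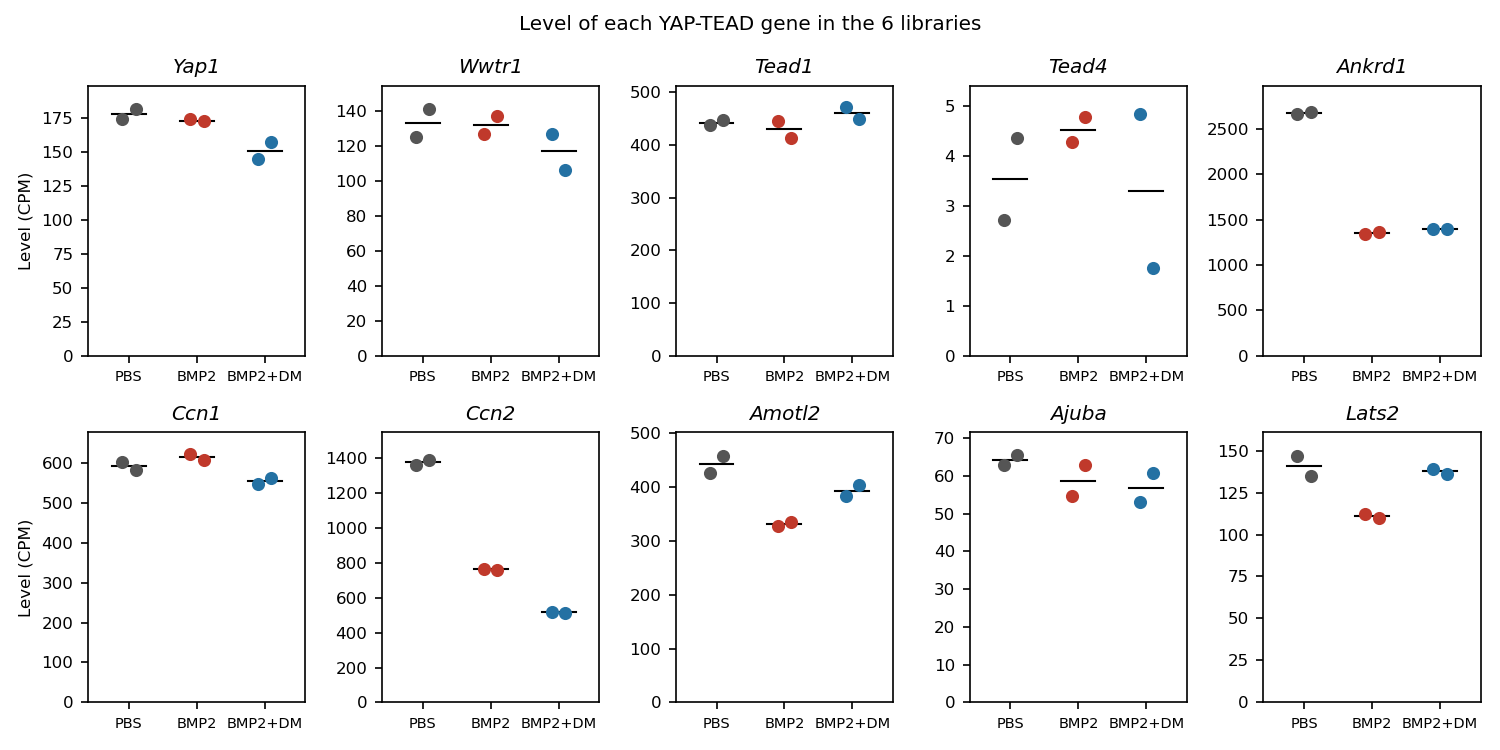
Level of each of the 10 genes in CPM (vertical axes, from 0, one scale per gene) in the 2 libraries of each group (points) with the group mean (bar). Ankrd1 and Ccn2 dropped with BMP2, Amotl2 and Lats2 dropped and came back up with dorsomorphin, and Ccn1, Tead1 and Wwtr1 were not called with BMP2.

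Ajuba, whose LIM-domain protein binds LATS kinases and restrains them, was not called in any comparison. It stood at 63.0 and 65.6 CPM with PBS, 54.7 and 62.9 CPM with BMP2, and 53.1 and 60.8 CPM with BMP2+DM. The PBS libraries were the highest by a small margin, and the spread between the 2 libraries of each treated group was wider than the margin (log2 −0.13 ± 0.11 for BMP2, adjusted p = 0.485).

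The co-activators themselves hardly differed between BMP2 and PBS. Yap1 stood at 174 and 182 CPM with PBS and at 174 and 173 CPM with BMP2 (log2 −0.04 ± 0.07, adjusted p = 0.75). Wwtr1 stood at 125 and 141 CPM with PBS and at 127 and 137 CPM with BMP2 (log2 −0.01 ± 0.09, adjusted p = 0.965). With BMP2+DM, Yap1 was at 145 and 157 CPM and Wwtr1 at 127 and 106 CPM. Both Yap1 libraries were then below all others. Yap1 was called lower in BMP2+DM against PBS (log2 −0.24 ± 0.07, adjusted p = 0.017) and not against BMP2 (−0.19 ± 0.07, adjusted p = 0.0835). Leaving out PBS replicate 2 (−0.20) or BMP2+DM replicate 1 (−0.18) removed the Yap1 call, with adjusted p from 0.0062 to 0.132 over the alternatives. Wwtr1 was not called in that comparison (−0.19 ± 0.09, adjusted p = 0.145), except without BMP2+DM replicate 1, where it was −0.33 (adjusted p from 0.0262 to 0.704 over the alternatives). Gm20416, annotated on the other strand, shares 1.25% of the exonic bases of Yap1.

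Tead1, the main TEAD gene of heart muscle, stood at 437 and 448 CPM with PBS, 446 and 414 CPM with BMP2, and 471 and 449.5 CPM with BMP2+DM. Its groups lay within 0.10 of each other on the log2 scale and no comparison passed. Tead4 had few reads, 18 to 50 in each library. It was at 2.72 and 4.35 CPM with PBS, 4.27 and 4.77 CPM with BMP2, and 4.84 and 1.75 CPM with BMP2+DM. All groups overlapped, and the widest spread was within BMP2+DM, with 50 and 18 reads in libraries of nearly equal depth. No comparison passed, with standard errors of 0.42 to 0.43 on the log2 scale.

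Per kilobase of exon, Tead1 made up 61.7% to 69.8% of the summed level of the 4 TEAD genes in every library. Tead2 took 19.6% to 26.4%, Tead3 7.5% to 12.2% and Tead4 1% to 2.73%. Ordered by level per kilobase with PBS, the 10 genes ran from Ankrd1 (926 CPM per kb) through Ccn2 (481), Ccn1 (293), Amotl2 (70.4), Tead1 (32.6), Wwtr1 (27.9), Lats2 (20.2), Yap1 (19.2) and Ajuba (17.6) to Tead4 (0.982). The ranges of Lats2 (19.4 to 21.1) and Yap1 (18.8 to 19.7) overlapped, so their order was within the spread. Ankrd1 stood above 99.9% of the tested genes by this measure with PBS, and Yap1 above 81.8%. With the longest transcript as the length, Yap1 (33.7) moved above Wwtr1 (28.4) and Lats2 (27.2), and the other ranks were kept.

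**Figure D2:**
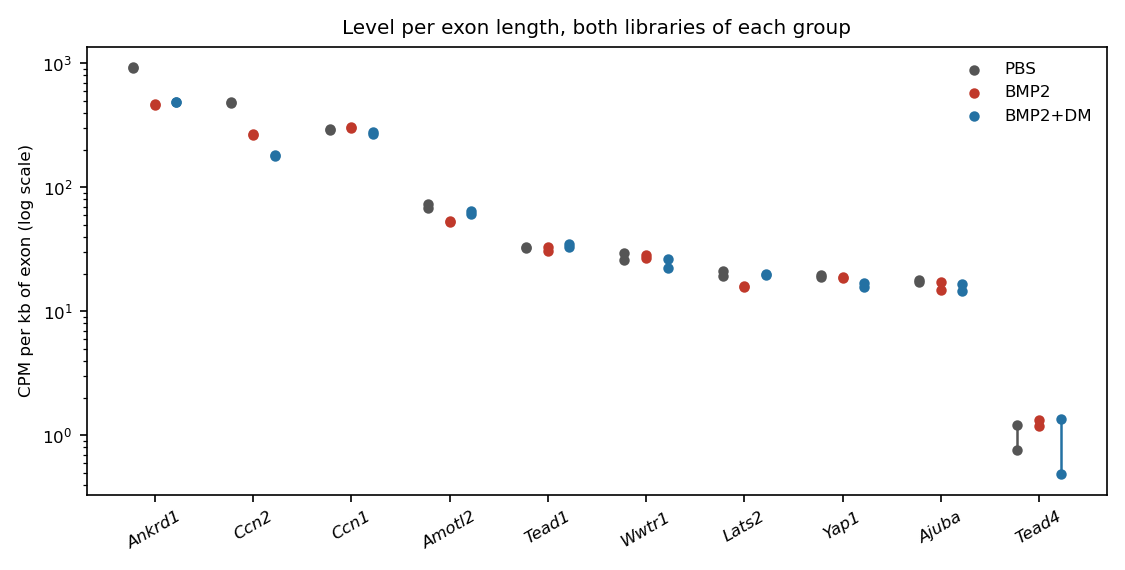
Level per kilobase of exon (log axis) of the 10 genes in order of their PBS level, both libraries of each group as points joined by a line. Ankrd1, Ccn2 and Ccn1 lay at 179 CPM per kb or higher in every library, Yap1 and Wwtr1 between 15.7 and 29.5, and Tead4 between 0.486 and 1.35.

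Setting BMP2+DM against BMP2 shows what dorsomorphin changed in cells that also had BMP2. It raised Amotl2 and Lats2 and lowered Ccn2, 3 of the 10 genes, where 8.73% of all tested genes were called (4.28% rose and 4.44% fell). At an unadjusted p under 0.05, 2 rose and 3 fell, and with DESeq2, 2 rose and 2 fell. The median of the 10 genes was −0.10, beside 0.00 for all tested genes. Against PBS, BMP2+DM lowered Ankrd1, Ccn2, Amotl2 and Yap1 and raised none of the 10, where 20.9% of all tested genes were called (9.38% rose and 11.5% fell). At an unadjusted p under 0.05, 5 were lower and 0 higher, and DESeq2 called 4 lower and 0 higher. Amotl2 was at −0.17 ± 0.05 in this comparison (adjusted p = 0.0207) and was not called once PBS replicate 2 (−0.12) or BMP2+DM replicate 1 (−0.14) was left out, with adjusted p from 0.0173 to 0.21 over the alternatives. Without PBS replicate 2 only 2 of the 10 genes were called. These comparisons share libraries, the BMP2 or the PBS ones, and are not independent of each other.

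**Figure D3:**
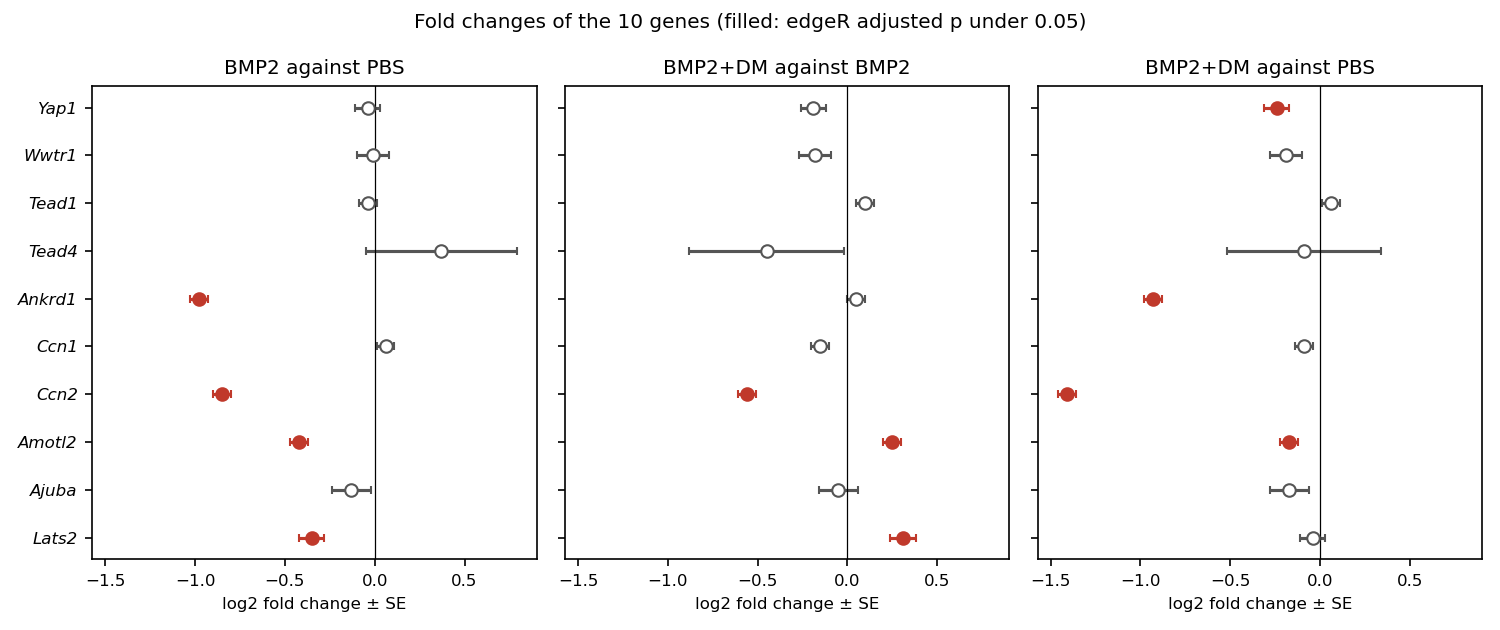
Log2 fold change with its standard error (horizontal axes) of the 10 genes in the 3 comparisons, filled where the edgeR adjusted p was under 0.05. Ankrd1 sat near −1 with BMP2 and near 0 when dorsomorphin was added, whereas Ccn2 was lower in both steps and Amotl2 and Lats2 changed sign.

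Markers of several cell types also changed, though not all in the same direction. Smooth muscle and pericyte markers (7 genes, among them Acta2, Tagln and Cnn1) summed to 3210.4 to 3279 CPM with PBS and to 1965 to 2029 CPM with BMP2; 4 of the 7 fell with BMP2 and 0 rose. With BMP2+DM their sum was 1981 to 2082 CPM. Acta2 (mean 2087 CPM with PBS and 1163 CPM with BMP2) and Tagln (718 and 504 CPM) made up most of this sum. Myh11 (log2 −0.37 ± 0.28), Rgs5 (−0.51 ± 0.23) and Pdgfrb (−0.13 ± 0.07) were not called with BMP2. Epicardial and mesothelial markers, of which 4 of 6 fell with BMP2, summed to 108 CPM in both PBS libraries and to 72.9 to 75.6 CPM with BMP2. With BMP2+DM their sum was 70.4 to 78.9 CPM, but its members moved apart: against BMP2, Upk3b (2.06 to 5.58 CPM, log2 1.44 ± 0.31) and Msln (8.43 to 22.8 CPM, 1.44 ± 0.20) rose, as Amotl2 and Lats2 did, and Lrrn4 fell (44.9 to 20.7 CPM, −1.12 ± 0.13). Cardiomyocyte markers went from between 27221 and 27578 CPM to between 23043 and 23271 CPM, with 7 of 8 lower, and to between 24924 and 25139 CPM with BMP2+DM. For added dorsomorphin 3 of the 8 rose and 0 fell. Pln (645 to 963 CPM, log2 0.58 ± 0.05), Ryr2 (332 to 452 CPM, 0.44 ± 0.05) and Myh6 (0.09 ± 0.03) rose. These 3 had fallen with BMP2, so they too fell and rose like Amotl2 and Lats2. With BMP2, fibroblast markers went from between 7768 and 8245 CPM to between 8077 and 8239.9 CPM, with 4 of 8 genes lower and 2 higher. For added dorsomorphin 3 of the 8 rose and 3 fell, and their sum was 7595 to 7931 CPM. In the order PBS, BMP2 and BMP2+DM, Pdgfra (213, 146 and 113 CPM) and Col1a1 (5324, 4837 and 3240.4 CPM) stepped down, as Ccn2 did. Col3a1 stepped up (1833, 2657 and 3816 CPM). Leukocyte markers summed to 87.1 to 90.3 CPM with PBS and 65.7 to 68.2 CPM with BMP2, with 1 of the 4 tested lower, Lyz2 (58.5 to 37.5 CPM). Endothelial markers summed to 223 to 229 CPM with PBS, 188 to 202 CPM with BMP2 and 127 to 138 CPM with BMP2+DM. Their sum was lower at each step, but its members differed with BMP2. Emcn fell (56.5 to 29.1 CPM), Kdr rose (15.3 to 23.7 CPM) and Cdh5 stayed level (61.9 and 62 CPM). Of the 6, 1 rose and 1 fell with BMP2, 3 fell for added dorsomorphin, and 5 were lower in BMP2+DM than in PBS. Over all tested genes, 9.29% fell and 6.55% rose with BMP2. For added dorsomorphin 4.28% rose and 4.44% fell, and in BMP2+DM against PBS 11.5% fell. No marker of these lists was at 0 in all libraries. The part of these cells in the changes of the 10 genes was not tested.

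The rest of the Hippo pathway was described with lists of genes by role. None of the 10 kinase-core genes (the MST kinases Stk3 and Stk4, their scaffold Sav1, Lats1, the MOB co-activators and further upstream kinases) was called with BMP2, by edgeR or DESeq2 or at an unadjusted p under 0.05, with a median of −0.01, where 15.8% of all tested genes were called. Added dorsomorphin lowered 2 of the 10, where 8.73% of all tested genes were called: Map4k4, a kinase that can act on LATS (543 ± 7.14 to 473 ± 20.0 CPM, SD, n = 2; log2 −0.20 ± 0.05), and Mob1a, a LATS co-activator (153 ± 3.70 to 128 ± 2.25 CPM; −0.25 ± 0.07). Both lost the call without either BMP2 library or BMP2+DM replicate 1, and Mob1a also without BMP2+DM replicate 2, with values of −0.16 to −0.24 for Map4k4 and −0.23 to −0.28 for Mob1a over the fits without 1 library. In BMP2+DM against PBS, Mob1a alone of these was lower (−0.31 ± 0.07, and −0.24 without PBS replicate 1 or without both PBS 1 and BMP2 1, where the call was lost). With RLE scaling 2 of the 10 were lower there. In the main fit 11.5% of all tested genes fell in that comparison.

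Of 12 upstream and junctional regulators, 2 rose and 2 fell with BMP2, with a median of −0.11. Over all tested genes 6.55% rose and 9.29% fell with BMP2. For added dorsomorphin 8.73% of all tested genes were called, and in BMP2+DM against PBS 20.9%. Nf2, which encodes the Hippo activator merlin, rose from 98.4 ± 5.91 to 127 ± 0.163 CPM (log2 0.37 ± 0.08), and Limd1, an Ajuba-family gene, from 66.0 ± 3.73 to 90.8 ± 2.93 CPM (0.46 ± 0.09). The FERM-domain gene Frmd6 fell from 101 ± 1.85 to 72.0 ± 1.34 CPM (−0.49 ± 0.09), and the protocadherin gene Dchs1 from 56.1 ± 5.59 to 41.3 ± 0.762 CPM (−0.44 ± 0.12). All 4 lost their calls with PBS 1 and BMP2 1 both left out, but at 0.43, 0.44, −0.53 and −0.52 the differences there were of similar size to those with all libraries. Nf2 also lost its call without PBS replicate 2 (0.31), and Dchs1 without PBS replicate 2 (−0.34), BMP2 replicate 1 (−0.42) or BMP2 replicate 2 (−0.46). None of the 12 was called for added dorsomorphin, by edgeR or DESeq2 or at an unadjusted p under 0.05, and all 4 were called against PBS with BMP2+DM in the same directions (0.45, 0.44, −0.44 and −0.60), though Limd1 not with PBS 1 and BMP2 1 left out (0.38).

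Among the remaining TEAD genes and the VGLL genes, whose proteins compete with YAP for TEADs, 4 of 5 were tested; Vgll2 did not pass the count filter. Tead3 fell with BMP2 from 40.8 ± 1.71 to 25.6 ± 1.34 CPM (log2 −0.67 ± 0.14), and Vgll3 from 159.8 ± 9.40 to 127 ± 2.06 CPM (−0.33 ± 0.07, and −0.27 with the call lost without PBS replicate 2). Vgll3 was back at 160.0 ± 8.91 CPM with BMP2+DM (0.33 ± 0.07 against BMP2), which like Lats2 put it within the PBS range; that call was lost without BMP2 replicate 1 (0.32) or BMP2+DM replicate 1 (0.27). Tead2 and Tead3 were lower in BMP2+DM than in PBS (−0.38 ± 0.11 and −0.45 ± 0.14). The Tead2 call was lost without PBS replicate 2 (−0.31) or either BMP2+DM library (−0.37 and −0.39), and the Tead3 call without either PBS library (−0.40 and −0.49) or BMP2+DM replicate 1 (−0.29), and with DESeq2. Both also lost it with PBS 1 and BMP2 1 left out (−0.45 and −0.40). With PBS 1 and BMP2 1 both left out, no gene of this list was called with BMP2, at −0.58 for Tead3 and −0.38 for Vgll3.

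Other genes known as YAP-TEAD targets moved in both directions. Of 20 listed, 18 were tested, and with BMP2 3 rose and 4 fell, with a median of −0.01 beside 0.00 for all tested genes, of which 15.8% were called. Without PBS replicate 1, PBS replicate 2 or BMP2 replicate 1, only 1 of the 18 rose. Axl, a receptor tyrosine kinase gene, fell from 589 ± 1.62 to 400.3 ± 23.9 CPM (−0.56 ± 0.05). Crim1, which encodes a membrane protein that binds BMPs, fell from 247 ± 2.51 to 189 ± 10.7 CPM (−0.39 ± 0.06), and the endothelin gene Edn1 from 106 ± 2.05 to 74.0 ± 7.20 CPM (−0.52 ± 0.10). Ccdc80, a matrix protein gene, rose from 83.3 ± 2.15 to 243 ± 7.37 CPM (1.54 ± 0.06), the greatest shift in the list. With PBS 1 and BMP2 1 both left out, 1 rose and 1 fell; Crim1 (−0.34) and Edn1 (−0.60) lost their calls.

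Added dorsomorphin raised 3 and lowered 3 of the 18, where 8.73% of all tested genes were called, and lowered 1 without BMP2 replicate 1. Crim1 rose back to 261 ± 4.33 CPM (0.47 ± 0.06), like Amotl2 and Lats2, and Ccdc80 rose further to 312 ± 17.3 CPM (0.36 ± 0.06). Edn1 fell further to 53.6 ± 5.28 CPM (−0.47 ± 0.10), like Ccn2, and Myof, a membrane repair gene, fell from 217 ± 2.76 to 180.0 ± 0.263 CPM (−0.27 ± 0.06). With PBS 1 and BMP2 1 both left out, only Crim1 of these 4 was called (0.41). Myof and Edn1 lost their calls without BMP2 replicate 1 (−0.25 and −0.36), and Edn1 also without BMP2+DM replicate 2 (−0.37). In BMP2+DM against PBS, 3 rose and 4 fell, with Ccdc80 at 1.91 ± 0.06 and Edn1 at −0.99 ± 0.10. Over all tested genes 20.9% were called in that comparison.

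**Figure D4:**
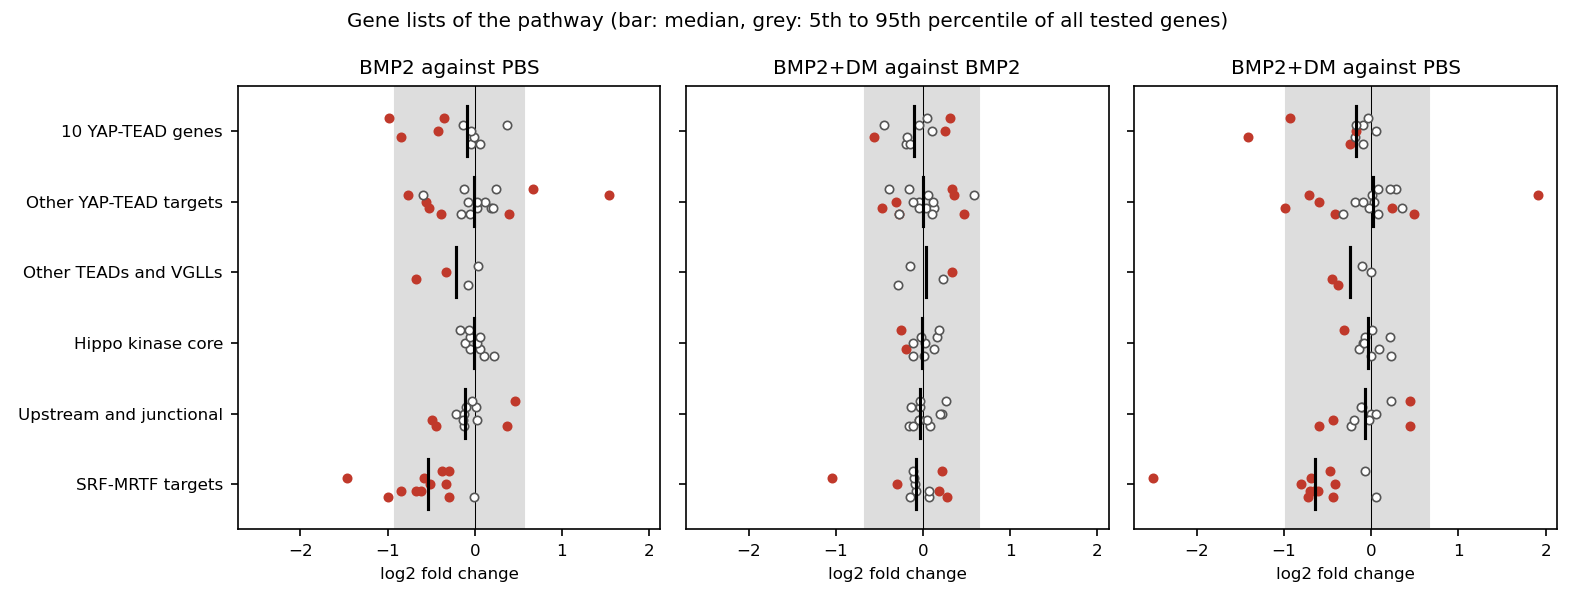
Log2 fold change (horizontal axes) of every tested gene of 6 lists in the 3 comparisons, filled where the edgeR adjusted p was under 0.05, with the list median as a bar and the 5th to 95th percentile of all tested genes in grey. The 10 YAP-TEAD genes and the other targets spread to both sides of 0 with dorsomorphin, and the kinase core stayed within the grey band throughout.

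Genes whose levels followed the same course over the 6 libraries were sought by the root mean square difference between log2 profiles, each centred on its own mean, among 8368 genes with a mean log2 CPM of at least 4, predicted models left out. Closest to Ankrd1 were Sh3bgr (0.0522), the membrane protein gene Emp1 (0.0523) and Ccng2, which encodes cyclin G2 (0.0688), where the median gene was at 0.478. Sh3bgr stood at 298 ± 3.49 CPM in the PBS group, 147 ± 0.911 CPM in the BMP2 group and 161 ± 10.7 CPM in the BMP2+DM group. Closest to Ccn2 were the transcription factor gene Sox9 (0.0845), the integrin gene Itga4 (0.0897) and the chemokine gene Cxcl16 (0.0924), against a median of 0.601. Sox9 went from 55.3 ± 4.47 to 32.0 ± 2.13 and 19.6 ± 0.943 CPM, another staircase downward. Ccn1, which varied little, lay closest to genes that also varied little: P4hb (0.0188), Psmc3 (0.0196) and Stbd1 (0.0216), against a median of 0.153.

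The promoters of the 10 genes were searched for the element marked in the Ankrd1 sequence. The RefSeq table held windows of 300 bases (250 before and 50 after a start site) for 7 of the 10 genes, namely Yap1, Wwtr1, Ankrd1, Ccn1, Amotl2, Ajuba and Lats2. All 7 had a match in at least 1 window, or 8 of their 9 windows, and 14.7% of the 32851 windows in the table had one. With only the bases before the start site, 6 of the 7 genes and 7 of their 9 windows had a match, where 12.6% of all windows did. Several of these genes were chosen as known TEAD targets, so the share describes them and is no independent finding.

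The Ccn1 and Amotl2 promoters are shown because both hold 1 match, on the strand opposite the gene, yet the genes responded differently to BMP2. They cover the minus strand of chr3:145649986-145650235 and the plus strand of chr9:102717554-102717803, and capitals again mark the match.
Ccn1: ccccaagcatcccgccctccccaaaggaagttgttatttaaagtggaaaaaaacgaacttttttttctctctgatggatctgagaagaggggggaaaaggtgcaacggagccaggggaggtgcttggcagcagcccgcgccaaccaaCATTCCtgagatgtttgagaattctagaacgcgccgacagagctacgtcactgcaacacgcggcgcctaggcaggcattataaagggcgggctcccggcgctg
Amotl2: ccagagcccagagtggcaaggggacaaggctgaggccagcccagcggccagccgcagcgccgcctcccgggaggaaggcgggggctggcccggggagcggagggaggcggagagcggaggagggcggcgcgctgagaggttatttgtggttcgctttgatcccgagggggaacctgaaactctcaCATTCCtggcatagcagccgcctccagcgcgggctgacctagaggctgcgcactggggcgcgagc
The match begins 103 bases before the Ccn1 start site and 65 bases before that of Amotl2, by RefSeq. In the GENCODE annotation Amotl2 starts further upstream, at base 102716672, so its printed stretch lies within the gene span.

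For the remaining genes only the match and the 12 bases on each side are given, to show how the element sits in each.
Yap1: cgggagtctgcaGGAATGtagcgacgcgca
Wwtr1: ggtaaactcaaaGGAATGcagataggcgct
Ajuba, upstream match: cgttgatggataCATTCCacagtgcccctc
Ajuba, downstream match: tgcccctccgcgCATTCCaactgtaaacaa
Lats2: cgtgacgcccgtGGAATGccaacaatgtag
They lie at chr9:8004720-8004749, chr3:57576029-57576058, chr14:54577830-54577859, chr14:54577808-54577837 and chr14:57746102-57746131, all genes being on the minus strand. The Lats2 match begins at base 5 after the start site of 1 of its 2 RefSeq windows, and the other window had none. Both Lats2 windows lie within the GENCODE span of the gene. Of the 4 genes that fell with BMP2, Ankrd1, Amotl2 and Lats2 have a match, and so have Ccn1, Yap1, Wwtr1 and Ajuba, which were not called. A match is a description of the letters and not a measured site of TEAD binding.

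**Figure D5:**
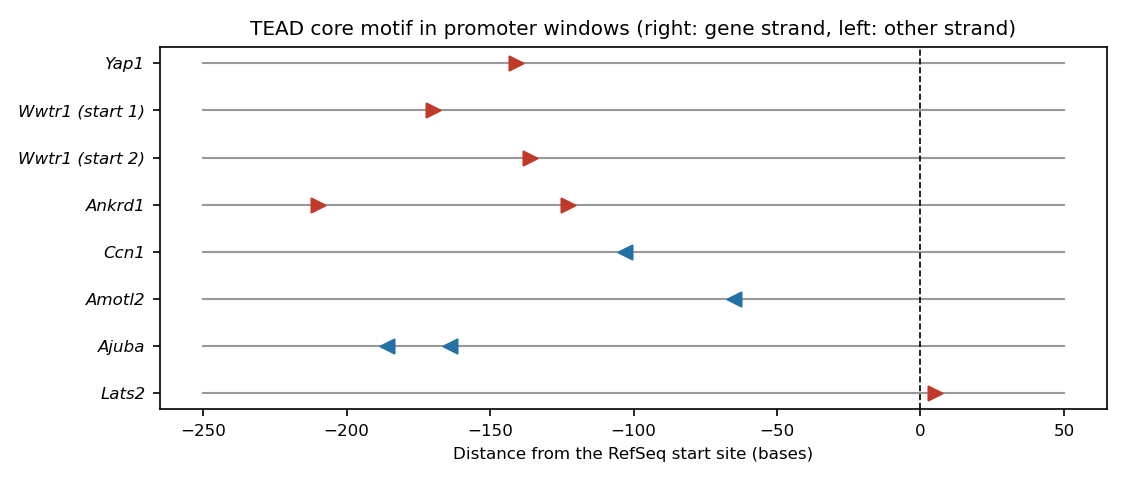
Position of each GGAATG match (triangles, pointing right on the gene's strand and left on the other strand) in the 8 promoter windows of 7 genes that hold one, as distance in bases from the RefSeq start site (dashed line). Ankrd1 and Ajuba hold 2 matches each, and the Lats2 match lies just after the start site.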

How the data were processed

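Per the submitters' processing notes, the authors used FastQC, Trimmomatic, STAR, HTSeq and DESeq2 with the mm10 genome; the sources used here give no version, gene annotation or strand setting. The authors deposited 1 table per library, with raw read counts by gene symbol. The 5 summary lines that name no gene (53.8% to 54.2% of each total) were left out. Of 32245 symbols, 97.7% were found in GENCODE release 21 (vM21), the source of positions and exon lengths. The 6 libraries were fitted together with edgeR 4.0.16 in R 4.3.3 (quasi-likelihood F test, TMM factors, filterByExpr with a minimum count of 10 and minimum total of 15, group means, 3 residual degrees of freedom). P-values were adjusted over all 14378 tested genes by the Benjamini-Hochberg method, with a threshold of 0.05. Standard errors (SE) were obtained as |log2 fold change| over the root of the F statistic. Levels are CPM, given per library or as mean ± SD over 2 libraries. Libraries of a group differed by more than sampling noise (chi-square per degree of freedom 3.58 to 4.27, ribosomal repeats left out). Alternatives were DESeq2 1.42.0, RLE factors, no filter, a replicate block, 2-group fits, each library left out, and the ribosomal-repeat models or both libraries high in them left out. From each pathway list the up to 4 genes with the smallest p per comparison are named, and the 3 nearest profiles of Ankrd1, Ccn1 and Ccn2. The 10 genes and the lists were chosen with earlier results of these data known. The fit was tested on simulated data.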

Additional observations from a re-analysis of the deposited data

How the results depend on the processing

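Of 390 refitted fold changes of the 10 genes (30 values, 13 alternatives), 364 kept their direction and their side of the threshold, 14 lost a call, 2 gained one and 10, none of them called, changed sign. The labels do not say whether replicate numbers pair the samples. Replicate 1 deviations correlated by −0.0376 to 0.0248 between groups across genes, which with 2 libraries per group does not settle it. Both libraries high in ribosomal repeats carry replicate number 1. With the replicate block the 10 genes gave the same counts. These were 0 up and 4 down with BMP2, 2 up and 1 down for dorsomorphin, and 0 up and 4 down against PBS. DESeq2 called 2 of the 10 lower for dorsomorphin. With PBS 1 and BMP2 1 both left out, 0 of the 10 rose for dorsomorphin and 2 fell against PBS; over all genes 171 rose and 403 fell with BMP2, 137 and 176 for dorsomorphin, and 533 and 855 against PBS. In that fit Vgll4 was −0.05 with BMP2, Taok2 −0.02 for dorsomorphin, and Lats2 0.03 and Vgll3 −0.06 against PBS; Vgll3 was −0.00 with only those 2 groups fitted. That fit keeps 1 PBS, 1 BMP2 and 2 BMP2+DM libraries and takes its spread from the BMP2+DM pair alone. Leaving out 1 library, 0 to 2 of the 10 rose for dorsomorphin and 2 to 4 fell against PBS; over all genes 475 to 1028 rose and 843 to 1442 fell with BMP2, 314 to 528 and 356 to 553 for dorsomorphin, and 742 to 1298 and 1085 to 1630 against PBS. Values whose sign changed there were, with BMP2, Wwtr1 (−0.09 to 0.08), Tead1 (−0.10 to 0.01), Tead2 (−0.18 to 0.01) and Vgll4 (−0.04 to 0.12). For dorsomorphin they were Ajuba (−0.14 to 0.06), Tead4 (−1.37 to 0.10), Taok2 (−0.02 to 0.36) and Vgll4 (−0.32 to 0.01). Against PBS they were Lats2 (−0.10 to 0.03), Tead4 (−1.0 to 0.47), Vgll3 (−0.06 to 0.06) and Vgll4 (−0.28 to 0.05). The cause was not tested. No scaling alternative moved the median of all genes by more than 0.01, but these scalings themselves centre the typical gene. A shift shared by most genes could therefore not be seen this way. Tead4 had 18 to 50 reads, with 50 and 18 in the BMP2+DM libraries.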

Other observations

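Genes known as targets of the serum response factor and its actin-sensing cofactors MRTF, a list chosen because Ankrd1 and the CCN genes are also described as responsive to actin tension, fell together with BMP2. Of 12 genes, 11 fell and 0 rose, where 15.8% of all tested genes were called, and the median was −0.54 beside 0.00 for all genes. Such a fall was not particular to this list: 7 of 8 cardiomyocyte markers also fell with BMP2, with a median of −0.29. The list was chosen with earlier results of these data known, and the cause of the fall was not tested. DESeq2 also called 11 lower and 0 higher. Smooth muscle actin, Acta2, went from 2087 CPM in both PBS libraries to 1167 and 1158 CPM with BMP2 (log2 −0.84 ± 0.05). The regulatory light chain gene Myl9 went from 349.6 ± 22.3 to 176 ± 1.43 CPM (SD, n = 2; −0.99 ± 0.06), the LIM-domain gene Fhl2 from 702 ± 6.63 to 440.5 ± 10.9 CPM (−0.67 ± 0.05) and the tropomyosin gene Tpm1 from 5644 ± 83.6 to 4504 ± 15.9 CPM (−0.33 ± 0.04). Srf itself did not pass (−0.01 ± 0.09). With PBS 1 and BMP2 1 both left out, 9 of the 12 fell.

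When dorsomorphin was added, 3 of the 12 rose and 2 fell, where 8.73% of all tested genes were called; with the ribosomal-repeat models left out, 4 fell. Myl9 (0.28 ± 0.06) and the vinculin gene Vcl (0.22 ± 0.05) rose, each with its call lost without either BMP2 library or BMP2+DM replicate 2 (0.21 to 0.29 for Myl9 and 0.19 to 0.23 for Vcl in those fits). The third was Acta2 (0.18 ± 0.05), named here after its values were seen, whose call was lost in the same fits: without either BMP2 library or BMP2+DM replicate 2, none of the 12 rose. Tagln (−0.30 ± 0.06) and the calponin gene Cnn1 (−1.04 ± 0.23) fell, with the Tagln call lost without BMP2 replicate 1 (−0.22) and the Cnn1 call without BMP2+DM replicate 2 (−0.91). With PBS 1 and BMP2 1 both left out, none of the 12 was called for dorsomorphin. Acta2, Tagln and Cnn1 are also in the smooth muscle marker list. Its summed level fell with BMP2 but is mostly Acta2 and Tagln, so that fall is no separate observation. The part of those cells was not tested. Against PBS, 10 of the 12 were lower with BMP2+DM, where 11.5% of all tested genes fell.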
